A study of Homo sapiens with 6 samples.

Results

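The genes described here are 9 genes of retinoid signalling, found by exact gene symbol among the 43424 symbols of the count files: the retinoic acid receptors RARA, RARB and RARG, the retinoid X receptors RXRA and RXRB, the corepressor NCOR1, and the retinoid-induced genes DHRS3, CYP26A1 and TGM2. All 9 were listed in the files. The libraries were labelled as HL-60 cells, an acute myeloid leukaemia line with the genotype label WT, and measured transcripts with QuantSeq, which reads a short stretch next to the poly(A) end. Cells of 3 libraries (CIP) had been exposed for 6 months to Corydalis incisa (Thunb.) Pers., a plant abbreviated CIP, whose concentration was raised slowly, with 2 µg/ml first and 20 µg/ml last. The submitters describe these cells as CIP-resistant and sought genes that take part in CIP-induced differentiation. Cells of the other 3 libraries (DMSO) had been exposed to DMSO over the same 6 months. The labels do not say whether each library came from a separate culture or whether the resistant cells were a clone, so the p-values below measure spread between libraries that may be technical.

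Retinoic acid, made from vitamin A, acts through nuclear receptors. A retinoic acid receptor (RAR) pairs with a retinoid X receptor (RXR) on DNA elements built from repeated half-sites, holds corepressors such as NCOR1 while no ligand is bound, and exchanges them for coactivators once ligand binds. Target genes include those that limit the signal, such as CYP26A1, which oxidises retinoic acid, and DHRS3, which reduces retinaldehyde to retinol. In myeloid cells RARA is the main RAR, and HL-60 cells are known for maturing towards granulocytes when given retinoic acid.

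Total counts were 9314584 to 10868396 in the CIP libraries and 8143657 to 9759687 in the DMSO libraries. With edgeR's quasi-likelihood test and Benjamini-Hochberg adjustment, 9394 of 12844 tested genes (73.1%) passed an adjusted p under 0.05, with 34.9% of tested genes higher and 38.2% lower in CIP. Of the calls, 47.7% were higher in CIP with TMM scaling (edgeR's trimmed mean of M values) and 36.8% with plain library totals. MPO, the myeloperoxidase that HL-60 is known to make in quantity, had 77887, 82824 and 84917 counts in CIP libraries, against 15, 9 and 9 counts in DMSO libraries. The DMSO values of MPO go against what is known of the untreated line, and whether the labels hold could not be settled from the counts. No DMSO concentration is given with these libraries, and the part of DMSO itself in the differences was not tested. CIP and DMSO below mean the libraries so labelled, and every direction rests on those labels. In CPM, counts scaled to a common library size, the 6 HL-60 and primary granule markers summed to 9577 to 10148 CPM in CIP and 1575 to 1708 CPM in DMSO. MPO made up most of the CIP sum. Of the other granule genes, ELANE (332.8 CPM in CIP, 592.1 in DMSO), AZU1 (25.2 in CIP, 44.1 in DMSO) and CTSG (95.4 in CIP, 654.7 in DMSO) were lower in CIP, and PRTN3 was higher (425.8 in CIP, 286.9 in DMSO). The 6 monocyte and macrophage markers summed to 16.3 to 23.3 CPM in CIP and 238.2 to 257.4 CPM in DMSO, with FCGR3A and CD163 at 0 counts in all libraries. Mast cell and eosinophil markers summed to 6147 to 6490 CPM in CIP and 102.4 to 113.9 CPM in DMSO. The CIP sum was nearly all PRG2, an eosinophil granule protein (6249 CPM in CIP, 1.41 in DMSO). The DMSO sum was nearly all TPSAB1, the mast cell tryptase, which had 0 counts in CIP libraries and 1019, 1184 and 971 in DMSO libraries. Lymphoid markers summed to 3.63 to 4.40 CPM in CIP and 80.6 to 99.4 CPM in DMSO. Fibroblast and epithelial markers summed to 21.3 to 50.1 CPM in CIP and 41.9 to 107.7 CPM in DMSO, ranges that overlapped. MYC, which HL-60 is known to carry in many copies, averaged 280.1 ± 52.3 CPM in CIP and 41.8 ± 3.91 CPM in DMSO (SD, n = 3 each). The part of these marker differences in the results on retinoid genes was not tested.

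Of the 9 retinoid genes, 6 had enough counts for the test and all 6 passed it: RARA and RXRA were higher in CIP, and RARG, RXRB, NCOR1 and DHRS3 were lower. This count is read beside the 73.1% of all tested genes that were called. The CIP and DMSO libraries did not overlap in CPM for any of the 6, as was the case for 75.5% of all tested genes. The median log2 fold change of the 6 was -0.50, against -0.03 over all tested genes. Each of these readings includes DHRS3, which passed the filter on low counts through the DMSO libraries. DHRS3 could therefore only be tested as a gene that differs. RARB, CYP26A1 and TGM2 had too few counts to be tested. A change in these libraries can come from fewer cells of a type or from less RNA per cell, which cannot be told apart in bulk RNA.

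**Figure D1:**
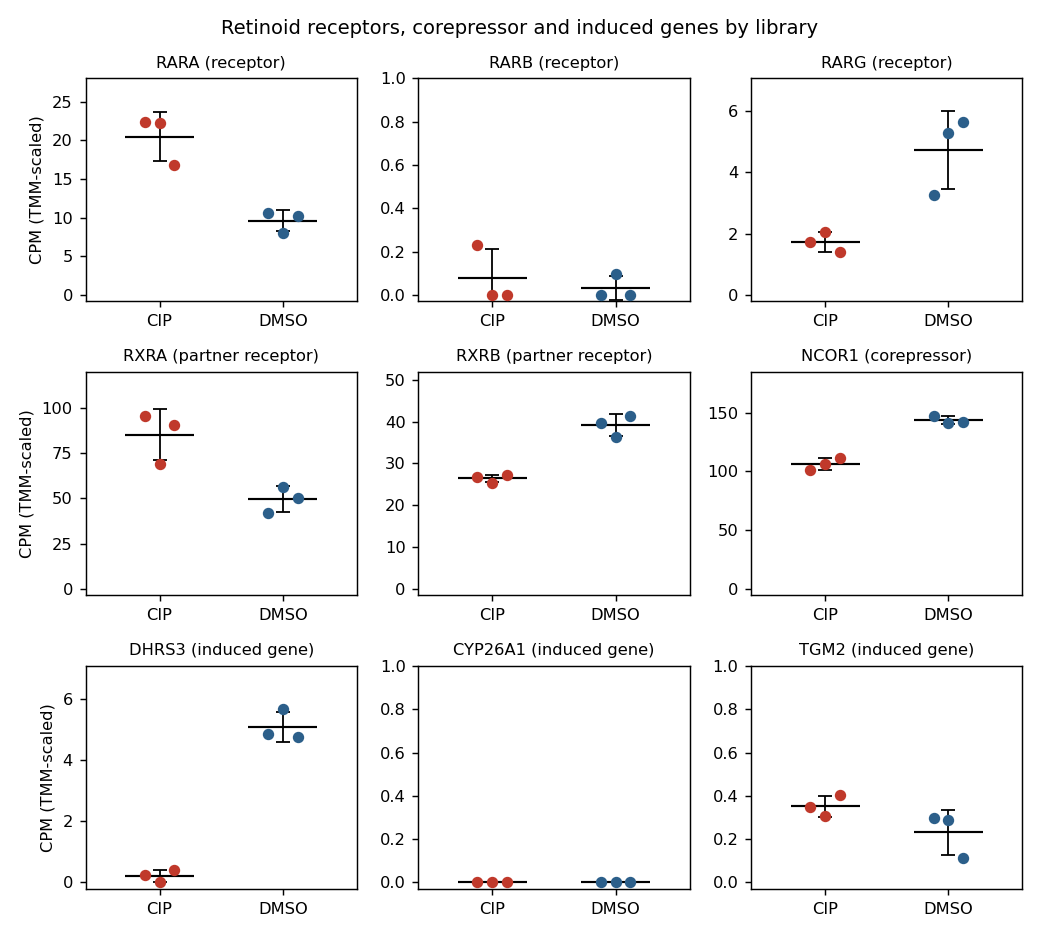
Level of each of the 9 genes by library, in TMM-scaled CPM (y axis, a separate scale for each gene), with CIP libraries in red and DMSO libraries in blue (3 points each). Black lines are group means and bars are SD; RARA and RXRA lie higher in CIP, RARG, RXRB, NCOR1 and DHRS3 lie lower, and RARB, CYP26A1 and TGM2 lie under 0.5 CPM in every library.

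Among the RARs, RARA, the receptor through which retinoic acid drives myeloid maturation (chromosome 17, 40309180 to 40357643, GRCh38.p14), had 194, 217 and 167 counts in CIP libraries and 107, 84 and 90 counts in DMSO libraries. Scaled to library size, these were 22.4, 22.2 and 16.8 CPM in CIP, against 10.6, 8.06 and 10.2 CPM in DMSO. The lowest CIP library, replicate 3, lay above the highest DMSO library. RARA averaged 20.5 ± 3.17 CPM in CIP and 9.61 ± 1.36 CPM in DMSO (SD, n = 3 each), 2.13-fold higher, a log2 fold change of 1.09 with an SE of 0.18 (edgeR adjusted p = 2.7e-06). Of all tested genes, 36.1% had a larger change in either direction. RARA-AS1, which overlaps RARA on the other strand, had 1 count over all libraries.

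RARG, the receptor best known from skin and also expressed in blood stem and progenitor cells (chromosome 12, 53210569 to 53232209), moved the other way. It had 15, 20 and 14 counts in CIP libraries and 33, 55 and 50 counts in DMSO libraries, or 1.73, 2.05 and 1.41 CPM in CIP against 3.27, 5.27 and 5.65 CPM in DMSO. The groups did not overlap, and DMSO replicate 1 stood nearest to CIP. The means were 1.73 ± 0.318 CPM in CIP and 4.73 ± 1.28 CPM in DMSO (SD, n = 3 each), with a log2 fold change of -1.44 with an SE of 0.39 (edgeR adjusted p = 0.0012), which is 2.72-fold lower in CIP.

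RARB (chromosome 3, 24829321 to 25597932) is itself induced by retinoic acid in many tissues and is often silent in tumours. It had 2, 0 and 0 counts in CIP libraries and 0, 1 and 0 counts in DMSO libraries. Both groups lay under 3 counts over the group, the floor used here, which corresponds to 0.106 CPM in CIP and 0.102 CPM in DMSO. No fold is given for that reason. Without a filter on low counts, edgeR returned an adjusted p of 0.73 for RARB. The last bases of RARB overlap the end of TOP2B on the other strand, which had between 3679 and 5766 counts in each library, so the few RARB counts cannot be assigned with certainty.

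Among the 9 genes, RARB and CYP26A1 alone held a direct repeat in the promoter windows searched, and they are shown for that reason. RAR and RXR pairs are known to act through repeats of this kind. Both genes were at or near 0 counts under both labels. RefSeq promoter windows (GRCh38.p14, from 250 bases before to 50 bases after an annotated start) were found for 8 of the 9 genes, 19 windows in all, and TGM2 had none. They were searched on both strands for half-sites of 6 bases, NGGTCA or NGTTCA, repeated in the same direction with a spacer of 1, 2 or 5 bases. The repeat with 5 spacer bases, called DR5, was spelled NGGTCANNNNNNGGTCA, NGGTCANNNNNNGTTCA, NGTTCANNNNNNGGTCA or NGTTCANNNNNNGTTCA, where the N that opens the second half-site stands beside the spacer. A DR5 was found in 2 of the 19 windows, 1 of RARB and 1 of CYP26A1, and no spacer of 1 or 2 bases was found in any of the 19. Of all 35116 promoter windows of the same length, 61 (0.174%) held a DR5. A spacer of 1 base was found in 86 of them (0.245%) and a spacer of 2 bases in 56 (0.159%). The stretches below give 250 bases before one of the annotated RARB starts (chr3:25428013-25428262, plus strand) and 30 bases around the CYP26A1 repeat (chr10:93073797-93073826, minus strand, the strand on which the repeat reads forward), 5′ to 3′, with the DR5 in capitals.
RARB: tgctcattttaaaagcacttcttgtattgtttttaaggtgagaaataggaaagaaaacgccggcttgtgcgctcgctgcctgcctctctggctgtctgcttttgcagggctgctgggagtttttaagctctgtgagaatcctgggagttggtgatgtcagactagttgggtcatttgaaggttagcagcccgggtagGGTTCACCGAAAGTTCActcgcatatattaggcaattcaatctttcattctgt
CYP26A1: gacaattAGTTCACCCAAAGTTCAtcttta
The RARB repeat spans bases 25428210 to 25428226 of chromosome 3, from 53 to 37 bases before the start. The CYP26A1 repeat spans bases 93073803 to 93073819 of chromosome 10, from 90 to 74 bases before one of its 2 annotated starts. An annotated CYP26A1 exon overlaps the 250 bases before that start, and whether it covers the repeat was not tested. The repeats were identical at 15 of 17 positions. Factor binding was not analysed here, so the repeats are given as sequence only.

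Among the RXRs, RXRA, the most widely expressed RXR and the shared partner of RARs, the vitamin D receptor and PPARs (chromosome 9, 134326455 to 134440585), had 830, 677 and 900 counts in CIP libraries and 426, 588 and 442 counts in DMSO libraries. These were 96.0, 69.3 and 90.8 CPM in CIP, against 42.2, 56.4 and 49.99 CPM in DMSO. CIP replicate 2 and DMSO replicate 2 stood nearest to each other without crossing. RXRA averaged 85.4 ± 14.1 CPM in CIP and 49.5 ± 7.11 CPM in DMSO (SD, n = 3 each), 1.72-fold higher, a log2 fold change of 0.78 with an SE of 0.11 (edgeR adjusted p = 1.1e-06).

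RXRB, the second RXR, encoded within the major histocompatibility complex (chromosome 6, 33193588 to 33200853), had 231, 248 and 269 counts in CIP libraries and 402, 379 and 367 counts in DMSO libraries. These were 26.7, 25.4 and 27.1 CPM in CIP, against 39.8, 36.3 and 41.5 CPM in DMSO, with close agreement within each group and a gap between them. The means were 26.4 ± 0.906 CPM in CIP and 39.2 ± 2.63 CPM in DMSO (SD, n = 3 each), with a log2 fold change of -0.57 with an SE of 0.12 (edgeR adjusted p = 6.5e-05), 1.48-fold lower in CIP. RXRG, the remaining RXR, known from muscle and brain, had 0 counts in all 6 libraries.

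The share of each receptor in its family was read within each library, where scaling plays no part. Since RARA and RXRA were higher and RARG and RXRB lower, the direction of the share differences follows from the gene values above and is no separate evidence. The shares are given for their size. QuantSeq reads come from transcript ends, so counts of different genes need no division by length and are set side by side as 3′ reads. RARA made up 91.9%, 91.6% and 92.3% of the summed RARA, RARB and RARG counts in CIP libraries, against 76.4%, 60.0% and 64.3% in DMSO libraries. The Wilson 95% intervals ran from 87.3% to 95.3% over the CIP libraries and from 51.7% to 82.7% over the DMSO libraries, and cover counting error only. Every CIP interval for RARA lay above every DMSO one. The mean share was 91.9 ± 0.352% in CIP and 66.9 ± 8.52% in DMSO (SD, n = 3 each), a difference of 25.02 percentage points (exact permutation test, two-sided, p = 0.1). RXRA made up 78.2%, 73.2% and 77.0% of the summed RXRA and RXRB counts in CIP, against 51.4%, 60.8% and 54.6% in DMSO. The mean RXRA share was 76.1 ± 2.63% in CIP and 55.6 ± 4.76% in DMSO (SD, n = 3 each), a difference of 20.5 percentage points (exact permutation test, two-sided, p = 0.1). In both families all CIP libraries lay above all DMSO libraries, and 0.1 is the smallest p that 3 against 3 libraries allow.

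**Figure D2:**
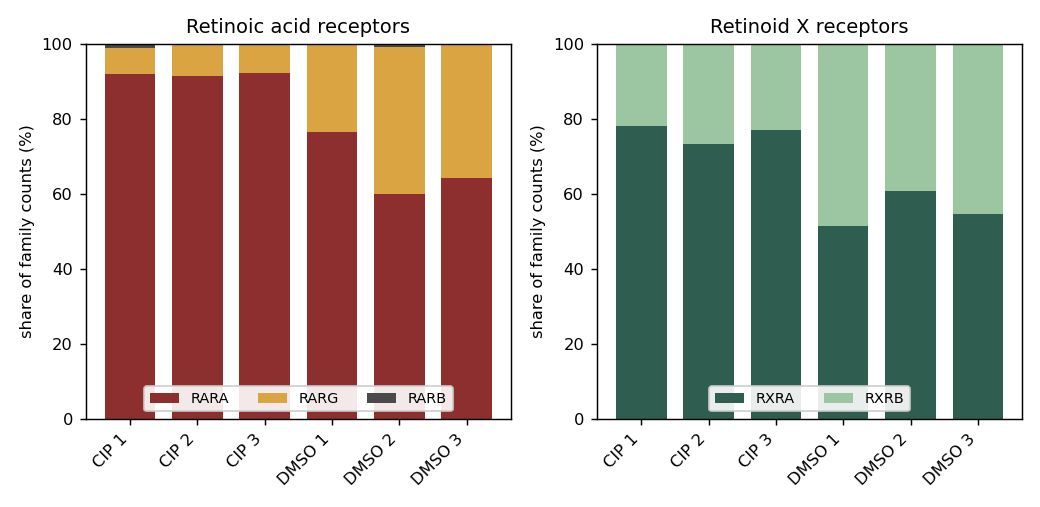
Share of each receptor gene in the summed counts of its family (y axis, percent) in each library (x axis, 3 CIP libraries and then 3 DMSO libraries). The left panel stacks RARA, RARG and RARB and the right panel RXRA and RXRB; RARA holds 91.6% to 92.3% in CIP and 60.0% to 76.4% in DMSO.

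NCOR1, the corepressor that brings histone deacetylase to receptors without ligand (chromosome 17, 16029157 to 16215534), had 873, 1038 and 1109 counts in CIP libraries and 1492, 1471 and 1259 counts in DMSO libraries. These were 100.9, 106.3 and 111.9 CPM in CIP, against 147.8, 141.1 and 142.4 CPM in DMSO, well apart. The means were 106.4 ± 5.45 CPM in CIP and 143.7 ± 3.55 CPM in DMSO (SD, n = 3 each), with a log2 fold change of -0.43 with an SE of 0.07 (edgeR adjusted p = 2.6e-06), 1.35-fold lower in CIP. Of all tested genes, 69.0% had a larger change in either direction. The 3′ end of NCOR1 lies within TTC19, a mitochondrial protein gene on the other strand, whose counts were also lower, at 47.6 ± 1.41 CPM in CIP and 75.1 ± 2.38 CPM in DMSO (SD, n = 3 each). With the strand setting of the counting not given in the sources used here, reads of NCOR1 and TTC19 cannot be told apart with certainty.

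Of the retinoid-induced genes, DHRS3, the retinaldehyde reductase (chromosome 1, 12567910 to 12618210), had 2, 0 and 4 counts in CIP libraries and 49, 59 and 42 counts in DMSO libraries. These were 0.231, 0 and 0.403 CPM in CIP, against 4.85, 5.66 and 4.75 CPM in DMSO, so the gene was near the floor under one label and low but steady under the other. It averaged 0.212 ± 0.202 CPM in CIP and 5.09 ± 0.497 CPM in DMSO (SD, n = 3 each), with a log2 fold change of -4.51 with an SE of 0.58 (edgeR adjusted p = 2.0e-08), 22.7-fold lower in CIP. The ratio of summed counts was 24.1 times lower in CIP, with an exact 95% interval of 10.8 to 66.8. The fitted fold rests on single reads: it was 15.1-fold without CIP replicate 2 and 41.5-fold without CIP replicate 3. Of all tested genes, 9.50% had a larger change in either direction. DHRS3 passed the filter on low counts through the DMSO libraries, so it could only have been tested as a gene that differs.

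CYP26A1, the enzyme that clears retinoic acid and is among the genes most readily induced by it (chromosome 10, 93073475 to 93077885), had 0 counts in all 6 libraries. A count of 0 allows up to 3 counts, or 0.106 CPM over the CIP libraries and 0.102 CPM over the DMSO libraries. TGM2, the tissue transglutaminase induced by retinoic acid in myeloid cells (chromosome 20, 38127385 to 38168475), had 3, 3 and 4 counts in CIP libraries and 3, 3 and 1 counts in DMSO libraries. The ratio of its summed counts, 10 over 7 after scaling, was 1.48 with an exact 95% interval of 0.509 to 4.58. Without a filter on low counts, edgeR gave TGM2 an adjusted p of 0.73, so a difference was not detectable at this depth.

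Ordered by 3′ reads in CPM, the CIP libraries ran NCOR1, RXRA, RXRB, RARA, RARG, TGM2, DHRS3, RARB and CYP26A1. From NCOR1 to RARG, each gene lay above the next in every CIP library, while TGM2 and DHRS3 overlapped. In the DMSO libraries the order was NCOR1, RXRA, RXRB, RARA, DHRS3, RARG, TGM2, RARB and CYP26A1, and DHRS3 and RARG overlapped there. DHRS3 therefore stood at the level of RARG under the DMSO label and at that of TGM2 under the CIP label.

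**Figure D3:**
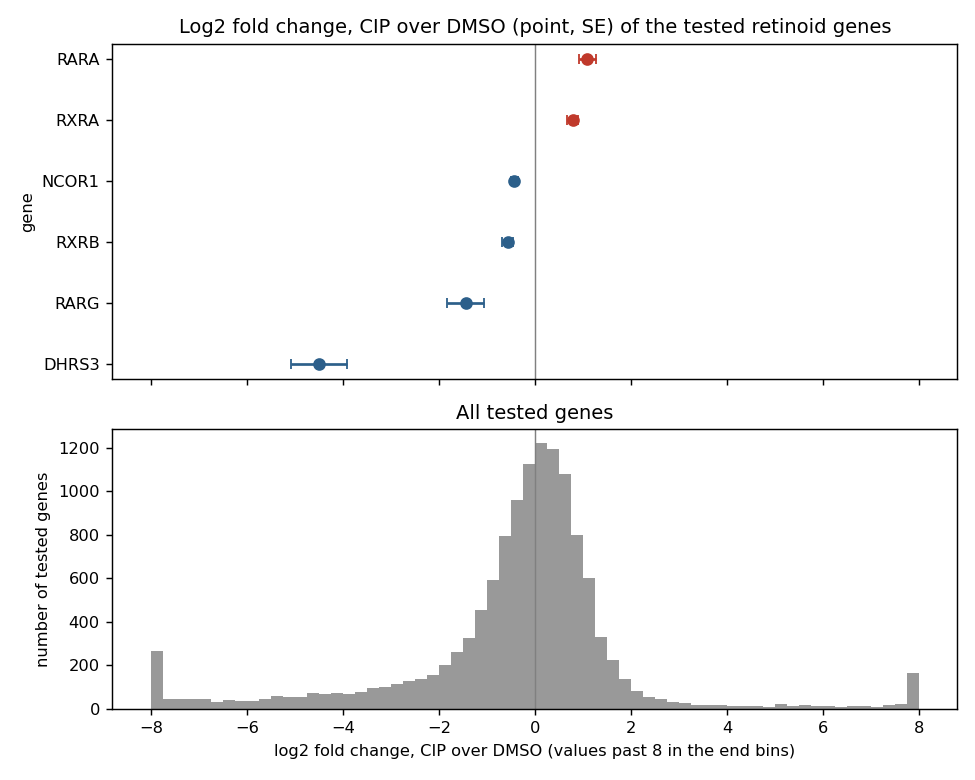
Log2 fold change, CIP over DMSO, of the 6 tested genes (upper panel, points with SE bars) and of all 12844 tested genes (lower panel, number of genes per bin). RARA (1.09) and RXRA (0.78) lie to the right of 0, and NCOR1 (-0.43), RXRB (-0.57), RARG (-1.44) and DHRS3 (-4.51) to the left.

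By root mean square difference of log2 CPM centred per gene over the 6 libraries, the tested genes whose pattern was most like that of RARA were MICOS13 (0.062), SNX3 (0.079) and CHCHD3 (0.080). MICOS13, for example, averaged 61.8 ± 11.6 CPM in CIP and 27.5 ± 3.43 CPM in DMSO (SD, n = 3 each). These distances describe likeness over 6 libraries that share 2 labels, and many genes differ between the labels by a similar amount.

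Genes around the receptors were read from 5 lists, which leave out the 9 genes. Each count of calls is read beside all tested genes, of which 73.1% were called, 34.9% higher and 38.2% lower. Some listed genes passed the filter on low counts through 1 group alone and could only be tested as genes that differ. Among those named, these are PPARD, RORB, CRABP2, ALDH1A1, CD38, ASB2, ITGAM and ICAM1, carried by the DMSO libraries, and PRAME and NRIP1, carried by the CIP libraries. Of 17 partner and related nuclear receptors, 10 were tested, with 1 that rose, 5 that fell and 4 short of the threshold, 60.0% called (a median of -0.61 on the log2 scale, against -0.03 over all tested genes). THRA, a thyroid hormone receptor that pairs with RXR, rose to 84.2 ± 2.99 CPM in CIP, against 55.4 ± 5.93 CPM in DMSO (SD, n = 3 each). PPARD, a fatty acid receptor that pairs with RXR, fell to 0.685 ± 0.323 CPM in CIP, against 29.2 ± 4.37 CPM in DMSO, and PPARA had a log2 fold change of -0.99 with an SE of 0.23 (edgeR adjusted p = 2.4e-04). RORB, an orphan receptor related to the RARs, had 0 counts in CIP and 18.0 ± 1.22 CPM in DMSO, at least 171-fold lower against 3 counts over the group. VDR, the vitamin D receptor, stood at 17.9 ± 2.53 CPM in CIP and 18.7 ± 5.16 CPM in DMSO and did not pass (edgeR adjusted p = 0.74). Without DMSO replicate 2, 2 genes of this list rose in place of 1.

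Of the 14 genes listed as corepressors and related repressors, all were tested, with 9 that rose, 4 that fell and 1 short of the threshold, 92.9% called against 73.1% of all tested genes (a median of 0.37 on the log2 scale). HDAC1 lost its call under 6 of 13 alternatives and TBL1XR1 under 2, which left 7 to 9 that rose; both are named because of that loss. Among subunits of the complex that NCOR1 forms, TBL1X fell to 16.1 ± 1.27 CPM in CIP, against 90.1 ± 2.91 CPM in DMSO. GPS2 fell to 29.9 ± 2.97 CPM in CIP, against 45.5 ± 2.37 CPM in DMSO (SD, n = 3 each). TBL1XR1 went the other way, at 129.0 ± 3.29 CPM in CIP and 111.7 ± 8.60 CPM in DMSO (edgeR adjusted p = 0.013). HDAC3, the deacetylase of the complex, was picked out after its values were seen. It stood at 48.6 ± 7.13 CPM in CIP and 48.6 ± 5.61 CPM in DMSO (edgeR adjusted p = 0.98). SIN3A, the scaffold of another deacetylase complex, had a log2 fold change of -1.01 with an SE of 0.09 (edgeR adjusted p = 1.2e-12).

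Proteins that bind and repress RARs or whose genes are joined to RARA in leukaemia were also in that list. PRAME, a tumour antigen reported to repress RAR signalling, had 424, 488 and 590 counts in CIP libraries and 0 counts in every DMSO library. It was at least 519-fold higher in CIP against 3 counts over the group. NRIP1, a ligand-dependent corepressor that is itself induced by retinoic acid, had 232, 242 and 199 counts in CIP libraries and 0, 1 and 0 counts in DMSO libraries, a ratio of 698 (exact 95% interval 124.8 to 27597). Its fitted fold of 508 rests on that single DMSO read and was 1802 without DMSO replicate 2. ZBTB16 (PLZF), a transcriptional repressor whose gene is fused to RARA in some acute promyelocytic leukaemias, rose to 220.002 ± 7.72 CPM in CIP, against 14.7 ± 2.71 CPM in DMSO (SD, n = 3 each). PML, the usual fusion partner of RARA in that leukaemia, fell to 32.8 ± 1.35 CPM in CIP, against 42.3 ± 4.68 CPM in DMSO, a log2 fold change of -0.37 with an SE of 0.11 (edgeR adjusted p = 0.0046).

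Of 10 coactivators, all were tested, with 5 that rose, 3 that fell and 2 short of the threshold, 80.0% called against 73.1% of all tested genes (a median of 0.18 on the log2 scale). The acetyltransferase EP300 rose to 61.6 ± 6.19 CPM in CIP, against 35.4 ± 2.45 CPM in DMSO (SD, n = 3 each), and MED1, the Mediator subunit that contacts nuclear receptors, rose to 203.4 ± 1.59 CPM in CIP, against 123.97 ± 3.94 CPM in DMSO. The arginine methyltransferases split, with PRMT1 at 0.44 ± 0.07 (edgeR adjusted p = 2.5e-06) and CARM1 at -1.04 ± 0.08 (adjusted p = 2.6e-13), as log2 fold changes with their SE. NCOA2 fell to 8.89 ± 0.372 CPM in CIP, against 17.3 ± 1.87 CPM in DMSO. NCOA3 and CREBBP, picked out because they lost their call, made the count 3 in place of 5 under plain library totals and again without CIP replicate 1.

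Of 23 genes that take up, bind and convert retinoids, 10 were tested, with 1 that rose, 7 that fell and 2 short of the threshold, 80.0% called against 73.1% of all tested genes (a median of -1.07 on the log2 scale), and LRAT, CYP26C1 and BCO1 had 0 counts in all libraries. Under the alternatives, 6 to 10 genes of this list fell. RDH11, a retinaldehyde reductase, fell to 33.8 ± 3.30 CPM in CIP, against 88.0 ± 6.89 CPM in DMSO (SD, n = 3 each), and DGAT1, which can esterify retinol, fell to 9.27 ± 1.30 CPM in CIP, against 22.4 ± 4.26 CPM in DMSO. RDH13, a mitochondrial retinol dehydrogenase family member, rose to 51.5 ± 1.81 CPM in CIP, against 37.4 ± 2.60 CPM in DMSO. RDH10, which oxidises retinol, had a log2 fold change of -1.20 with an SE of 0.37 (edgeR adjusted p = 0.0047), and did not pass without DMSO replicate 2 (adjusted p = 0.087).

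CRABP2, which carries retinoic acid to RARs, had 1, 2 and 6 counts in CIP libraries and 21, 27 and 24 counts in DMSO libraries. CRABP2 was 7.51-fold lower in CIP by the fit, and 13.96-fold lower without CIP replicate 3. ALDH1A1, which makes retinoic acid, had 1, 1 and 4 counts in CIP libraries and 11, 12 and 15 counts in DMSO libraries, 5.87-fold lower in CIP by the fit, and 10.7-fold lower without CIP replicate 3. Both passed the filter through the DMSO libraries alone. CRABP1, ALDH1A2 and CYP26B1 were not tested, with 0, 1 and 1 counts over the CIP libraries and 11, 2 and 7 over the DMSO libraries. STRA6, the membrane transporter of retinol, and DHRS9, a retinol dehydrogenase, were singled out after their values were seen. STRA6 had 0 counts in CIP libraries and 6, 15 and 19 in DMSO libraries, and DHRS9 had 0 in CIP libraries and 8, 13 and 24 in DMSO libraries.

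Of 23 further genes known to be induced by retinoic acid, 19 were tested, with 4 that rose, 10 that fell and 5 short of the threshold (a median of -1.12 on the log2 scale). The share called, 73.7%, was close to the 73.1% of all tested genes. CEBPE, a transcription factor of late granulocyte maturation and a direct RARA target, rose to 157.3 ± 16.0 CPM in CIP, against 10.2 ± 1.57 CPM in DMSO (SD, n = 3 each). IRF1, an interferon-regulated transcription factor, rose to 54.1 ± 2.41 CPM in CIP, against 10.5 ± 0.1003 CPM in DMSO, and PRAM1, an adaptor protein first described as a PML-RARA-regulated gene, rose to 84.4 ± 5.84 CPM in CIP, against 35.1 ± 1.16 CPM in DMSO. CD38 and ASB2 were at or near 0 counts in CIP. CD38, an ectoenzyme whose rise marks the response of HL-60 to retinoic acid, had 0 counts in CIP libraries and 43, 52 and 59 in DMSO libraries, at least 49.5-fold lower. ASB2, a ubiquitin ligase subunit, had 0, 0 and 1 counts in CIP libraries and 78, 82 and 54 in DMSO libraries, a ratio of 206.4 lower in CIP (exact 95% interval 36.7 to 8191). Its fitted fold was 150.4, and 553 without CIP replicate 3.

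ITGAM, the CD11b integrin subunit of maturing myeloid cells, fell to 0.517 ± 0.457 CPM in CIP, against 4.56 ± 0.981 CPM in DMSO (SD, n = 3 each), 8.95-fold lower, and 17.04-fold lower without CIP replicate 1. ICAM1, an adhesion molecule, fell to 0.419 ± 0.258 CPM in CIP, against 12.4 ± 1.04 CPM in DMSO, 28.4-fold lower, and 43.2-fold lower without CIP replicate 3. Genes of this list are induced in different cells, and several respond to other signals as well, so the counts describe the list and not the activity of the receptors.

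**Figure D4:**
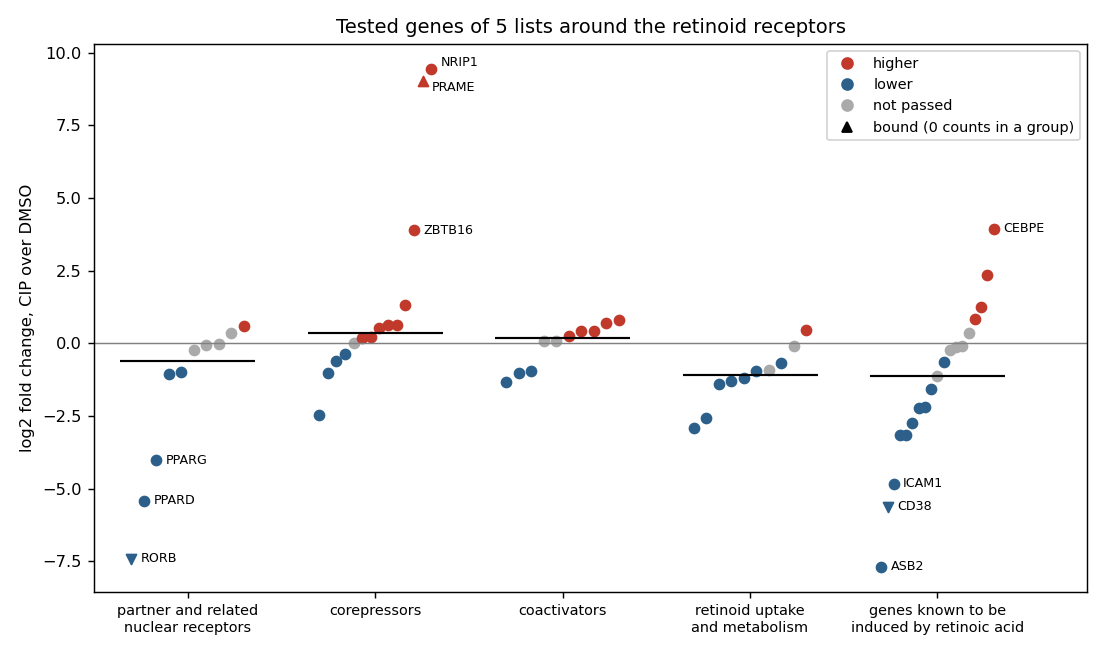
Log2 fold change, CIP over DMSO (y axis), of every tested gene of 5 lists (x axis), coloured by call at an adjusted p under 0.05, with the median of each list as a black line. Triangles are bounds for genes with 0 counts in a group, and genes with 1 to 3 counts in a group are drawn at the ratio of summed counts; PRAME and NRIP1 lie highest and ASB2 and RORB lowest.

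**Figure D5:**
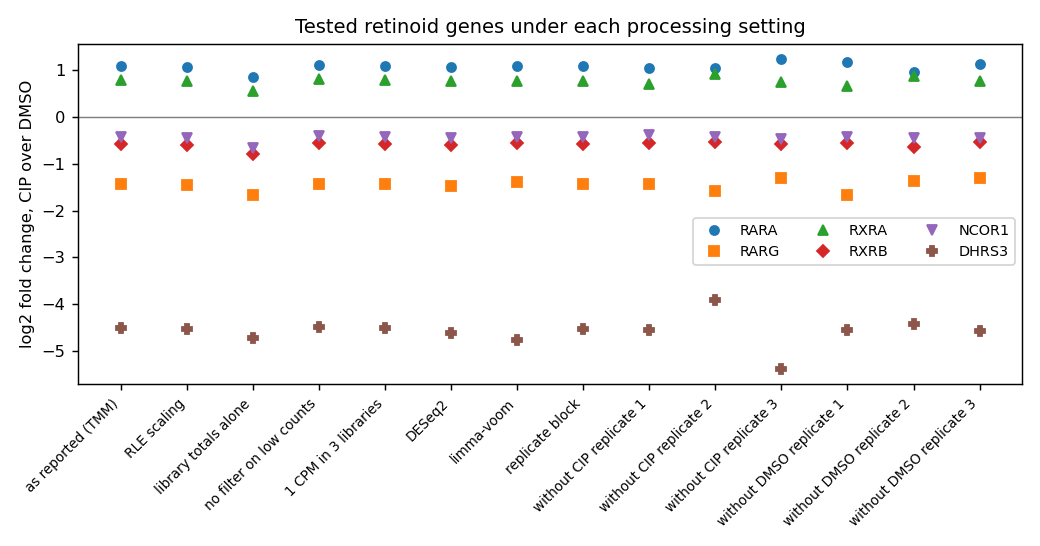
Log2 fold change, CIP over DMSO (y axis), of the 6 tested retinoid genes with the settings reported here and 13 alternatives (x axis). RARA and RXRA stay above 0 and RARG, RXRB, NCOR1 and DHRS3 below 0 in each, and DHRS3 spans -5.38 to -3.92.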

How the data were processed

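Each QuantSeq library has a table of gene symbols, in which the authors deposited whole-number counts. Their totals are unequal and show no normalization. Tools named in the submitters' processing notes, without role or setting, are STAR, HTSeq, fastp and bcl2fastq 2.20.0.422, with the build GRCh38. Strand, multiple mapping and molecular identifiers are not described there, and the intervals and floors hold counting error alone.

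Counts were filtered (filterByExpr), TMM-scaled and tested with edgeR 4.0.16 in R 4.3.3 (robust quasi-likelihood, group alone, two-sided, Benjamini-Hochberg over 12844 genes). CPM values are counts over the TMM-scaled totals of tested genes, and an SE is the absolute log2 fold change over the root of the F statistic. These steps were run on simulated counts in which few genes changed, equally many up and down. That does not check the scaling where most genes differ, as here. Within groups, chi-square per gene was 3.90 to 8.14, above sampling noise, and no library was merged with another. Positions and promoter sequences are from RefSeq (GRCh38.p14), and exons and strands from GENCODE. Alternatives were RLE scaling, library totals, other filters, DESeq2 1.42.0, limma-voom (limma 3.58.1), a block for the replicate number, and leaving out each library in turn. From each list, up to 3 called genes per direction with the largest change and at least 5 CPM are named, besides a fixed group that includes VDR, PML and MYC. The genes, lists and rules were chosen with earlier results of these data known.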

Additional observations from a re-analysis of the deposited data

How the results depend on the processing

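The 6 tested retinoid genes kept their direction and their call under all 13 alternatives, with a largest adjusted p of 0.011 (RARG). With library totals alone, the median over the 12844 genes moved to -0.26 on the log2 scale, against -0.03 with TMM, and RARA stood at 0.86, RXRA at 0.55, RXRB at -0.80 and NCOR1 at -0.66. Leaving out 1 library gave 0.97 to 1.23 for RARA, -1.66 to -1.30 for RARG, 0.67 to 0.92 for RXRA and -5.38 to -3.92 for DHRS3. Of 274 alternative values, 271 kept their direction and side of the threshold or, for counts of genes, stayed within 1.5 times. This tally includes the share differences, which were judged on direction alone and follow from the gene values. Coactivators that rose numbered 3 with library totals alone, where the cause was not tested, and 3 to 5 with 1 library left out. Partner receptors that rose numbered 1 to 2 with 1 library left out. Without a filter on low counts, where more genes are tested, 10 in place of 7 uptake and metabolism genes fell, with CRABP1, DHRS9 and STRA6 added. With the replicate number as a block, RARA stood at 1.09 and DHRS3 at -4.53, no call of the 6 genes changed, and 9061 of 12844 genes were called. Among the partner receptors, NR4A1 lost its call with the block, with no filter, with DESeq2, and without CIP replicate 2, CIP replicate 3, DMSO replicate 1 or DMSO replicate 3. Under the block, the mean share differences stayed at 25.02 and 20.5 percentage points for RARA and RXRA, by construction. They ran from 21.6 to 29.8 points for RARA and from 18.4 to 23.1 points for RXRA with 1 library left out. Same-numbered libraries showed no shared deviation over the tested genes (correlations -0.043 to -0.020, against -0.012 to 0.037 for libraries with different numbers). With so few libraries per group, this cannot tell whether same-numbered libraries shared a culture or a day. Depth limits RARB, CYP26A1 and TGM2, and the size of the DHRS3 change.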
